A study of Mus musculus with 23 samples.

Results

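The change of the testis transcriptome between 10.5 and 22.5 days post-partum (dpp) was compared with the change in cultured explants between the days of culture that match these ages, day 4 (D4) and day 16 (D16). For each gene the log2 change in culture, D16 minus D4, had the log2 change in vivo, 22.5 dpp minus 10.5 dpp, subtracted from it, and the result is called here the step difference. It used 11 of the 23 samples of the series: 3 of 10.5 dpp testes, 3 of 22.5 dpp testes, 3 of D4 explants and 2 of D16 explants, all from fresh tissue and all labelled as separate replicates. No 6.5 dpp sample entered the fit. The mice were of the outbred CD-1 strain, without a transgene or a deletion. The explants were pieces of 6.5 dpp testes grown on agarose at the gas-liquid interface in α-MEM with KnockOut serum replacement, gentamicin and all-trans retinol, and their central necrotic part was removed before RNA was extracted, so a culture library is a pool of the remaining rim of several explants. The in vivo testes were not cultured. The paper describes their RNA as that of whole testis in its text but as that of fragments in a figure legend, so whether they were cut is not settled. Thus culture, its medium, the trimming and the retinol supplement came together in both culture groups, and their parts in any difference cannot be told apart.

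In the mouse, the first spermatogenic wave starts from spermatogonia shortly after birth, and its cells enter meiosis, pair and recombine their chromosomes in the leptotene to pachytene stages of prophase, divide, and become round and then elongating spermatids. The ages compared here span the period in which spermatocytes come to fill the tubules and the first round spermatids form. In the same period the Sertoli cells, which nurse the germ cells, stop dividing and mature, and fetal Leydig cells are replaced by adult Leydig cells, which make androgens. RNA was measured in bulk, so that fewer cells of a type and less RNA per cell cannot be told apart in any result that follows.

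Libraries held between 31634658 and 69029328 counts on 27466 genes, none of the 11 was identical to another, and 18372 genes passed the filter on low counts and were tested. Libraries differed within both later groups. The 22.5 dpp replicate 2 had Spearman correlations of 0.972 and 0.975 over genes with the other 22.5 dpp libraries, whereas those correlated at 0.995 with each other, and the 2 D16 libraries correlated at 0.958, so that neither of these can be said to be the one that stands apart. The 4 pachytene markers (Piwil1, Ldhc, Pgk2 and Adam2) summed to 3681 CPM (the count scaled to the library total) in 22.5 dpp replicate 2 against 6197 and 5960 CPM in replicates 1 and 3. They summed to 4081 CPM in D16 replicate 1 against 1447 CPM in D16 replicate 2, and to at most 14.0 CPM in every 10.5 dpp and D4 library. All 5 Sertoli markers were detected in each group, with sums of 297 to 526 CPM at 22.5 dpp and 917 and 1420 CPM at D16, and the 4 epididymis markers stayed at or below 0.350 CPM in sum. Counts are therefore also given without both replicate 2 libraries, those of the later groups with the lower pachytene markers, a choice made after the data were seen, and D16 replicate 1 is named where leaving it out instead moved a count.

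The step differed between culture and in vivo in 3212 genes, with an adjusted p under 0.05 by edgeR's quasi-likelihood test and a log2 difference of at least 1. It was higher in culture for 1627 genes (8.86% of those tested) and lower for 1585 (8.63%). The genes called higher were mostly genes that fell less in culture, and those called lower were mostly genes that rose less. Without both replicate 2 libraries the counts were 2122 and 2197, and 2926 of the 3212 genes were again called in the same direction. Leaving out D16 replicate 1 raised the lower count to 2920, and leaving out 22.5 dpp replicate 3 reduced it to 982. The median step difference over all genes was -0.04, and with scaling by library size alone it moved by 0.27, where 2605 genes were higher and 1053 lower, so that 71.2% of calls were higher against 50.7% with TMM factors.

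In vivo, 5263 genes rose (28.6% of those tested) and 3531 fell (19.2%) between 10.5 and 22.5 dpp. In culture 3297 genes rose (17.9%) and 837 fell (4.56%) between D4 and D16. As a description of the called genes, of the 1627 with a higher step difference 1219 fell in vivo and were not called in culture, 127 fell in both, and 26 fell in vivo and rose in culture. Of the 1585 with a lower step difference, 700 rose in vivo and were not called in culture, 688 rose in both, and 28 rose in vivo and fell in culture. For the genes that rose in both, the median change was 4.48 in vivo and 2.44 in culture on the log2 scale, and for those that fell in vivo without a call in culture it was -1.72 and -0.28. The classes were set by these calls, so the medians describe them and test nothing.

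**Figure D1:**
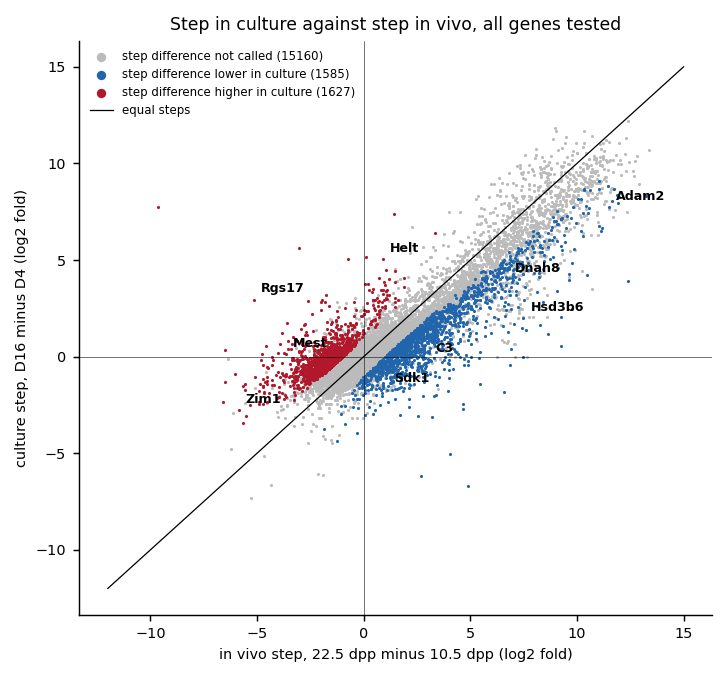
Each point is 1 of the 18372 genes tested, with its log2 change from 10.5 to 22.5 dpp in vivo on the horizontal axis and from D4 to D16 in culture on the vertical axis. The 1585 blue genes changed by less in culture or fell there, mostly to the right of zero and below the line of equal steps, and the 1627 red genes lie above the line, mostly to the left of zero.

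The difference of steps can arise at either end. At the start, 819 genes were higher at D4 than at 10.5 dpp (4.46%) and 585 were lower (3.18%), and at the end 1869 were higher at D16 than at 22.5 dpp (10.2%) and 2017 lower (11%). Among the genes with a lower step difference, 872 were lower at D16 without a call at D4, 207 were higher at D4 without a call at D16, and 106 were both. Among those with a higher step difference, 843 were higher at D16 only, 193 lower at D4 only and 39 both. Neither age was called for 366 genes of the lower and 492 of the higher set, and the few others were called in the same direction at both ages. So the larger share of either set differed at the later age.

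The gene with the smallest p in the higher direction was Rgs17, a regulator of G protein signalling (chr10:5825663-5922412 in GRCm38.p6). Its level was 14.3, 12.1 and 10.2 CPM at 10.5 dpp and 0.211, 0.439 and 0.158 CPM at 22.5 dpp, but 0.627, 0.551 and 0.507 CPM at D4 and 3.72 and 4.76 CPM at D16. It fell in vivo and rose in culture, and the groups do not overlap within either step. The step difference was 8.11 ± 0.44 on the log2 scale (SE, adjusted p = 2.19e-05 by edgeR's quasi-likelihood test). Helt, a transcription factor of the HES family, was high at D16 alone, at 12.5 and 12.4 CPM against 0.288 to 2.94 CPM in the other 9 libraries, and its step difference was 4.15 ± 0.38. Hoxb9, a homeobox gene of the posterior body, fell in vivo from 9.37 to 15.02 CPM at 10.5 dpp to 1.26 to 2.08 CPM, and rose in culture from 9.09 to 9.59 CPM to 15.8 and 24.1 CPM.

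The rest of the 10 genes with the smallest p in this direction fell in vivo, except Cx3cr1, described with the macrophages. Mest, an imprinted gene expressed from the paternal allele (chr6:30733506-30748466), was at 60.4, 59.5 and 61.2 CPM at 10.5 dpp, 3.33, 5.55 and 2.88 CPM at 22.5 dpp, 58.3, 60.95 and 57.7 CPM at D4 and 68.0 and 58.5 CPM at D16. It fell in vivo only, and the culture step was 0.15 ± 0.18. Hsd17b1, whose enzyme converts weak to potent sex steroids, had a step difference of 4.32 ± 0.35, with an in vivo step of -4.73 and a culture step of -0.41. Bcan, which encodes the matrix proteoglycan brevican, fell in both, from 135 to 152 CPM to 3.56 to 5.73 CPM in vivo and from 76.1 to 88.4 CPM to 27.5 and 28.5 CPM in culture. Tmprss13, a membrane serine protease, Serpine2, an inhibitor of serine proteases, and Bok, a relative of BAX in cell death, had step differences of 3.49, 2.21 and 2.07. The 10 genes of this direction kept their call when any 1 library was left out.

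In the lower direction the smallest p belonged to C3, the central component of complement (chr17:57203967-57228136). It was at 3.19, 3.11 and 3.55 CPM at 10.5 dpp and 20.4, 23.3 and 21.2 CPM at 22.5 dpp, and at 59.0, 69.3 and 64.8 CPM at D4 and 50.7 and 62.6 CPM at D16. It rose in vivo by 3.03 on the log2 scale, the culture step was -0.14 ± 0.12, and culture was above in vivo at both ages. Spon1, which encodes the matrix protein F-spondin, had the same order of group means, with 3.77 to 5.28 CPM at 10.5 dpp, 24.7 to 30.5 CPM at 22.5 dpp, 77.4 to 96.0 CPM at D4 and 41.5 and 57.2 CPM at D16. Other genes near the top were lower at the end. Clstn3, a calsyntenin of the cell surface, was at 19.96 to 21.9 CPM at 22.5 dpp and 1.51 and 1.90 CPM at D16, a step difference of -2.85 ± 0.25, and Sfi1, a centrosome protein whose gene overlaps Eif4enif1, was at 74.6 to 109.8 CPM at 22.5 dpp and 29.9 and 31.9 CPM at D16. Cfap54, a protein of the sperm tail and cilia, rose in both steps, by 5.90 in vivo and 2.51 in culture. These 10 genes also kept their call when any 1 library was left out.

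**Figure D2:**
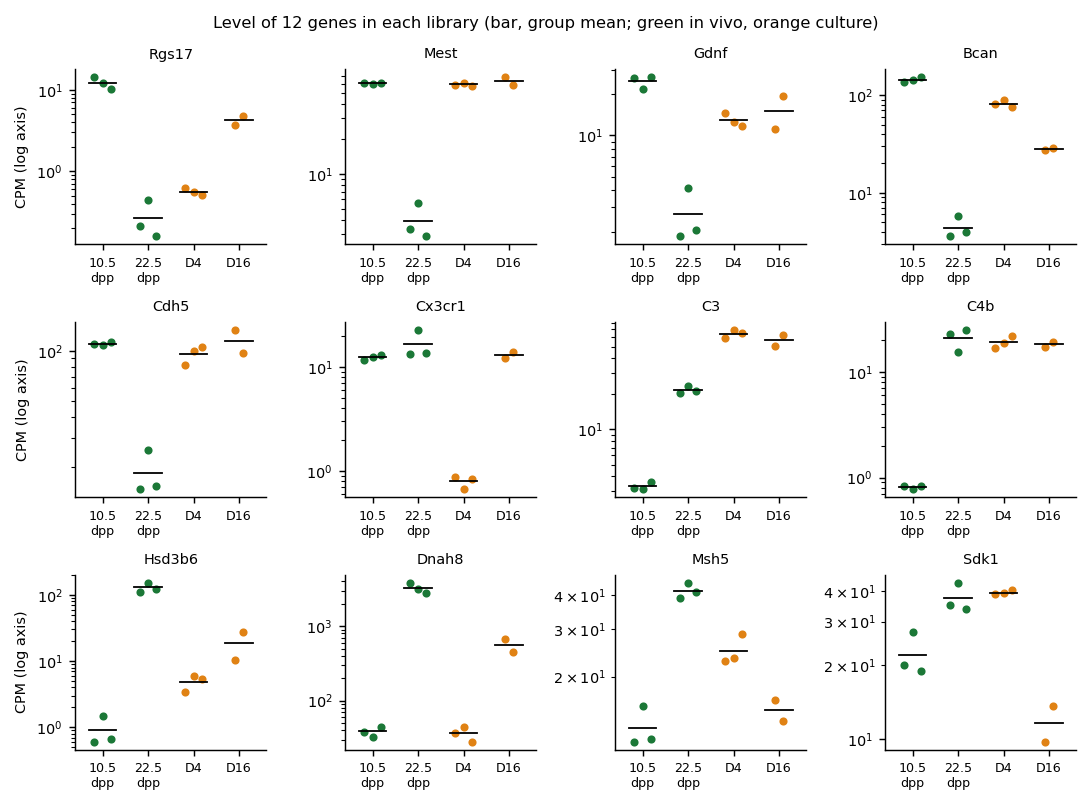
Each panel shows the CPM of 1 gene on a logarithmic axis in the 11 libraries, with in vivo libraries in green, culture libraries in orange and a bar at the group mean. Rgs17 moves in opposite directions in the 2 steps, Mest and Cdh5 drop in vivo alone, C3 and C4b are already high at D4, and Dnah8 and Hsd3b6 rise in both with D16 below 22.5 dpp.

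Gene lists, here and below, were read against the 8.86% of all genes called higher and the 8.63% called lower. Of 18 genes of spermatogonial stem and progenitor cells, all tested, the step difference was higher for 9 and lower for 1, with a median of 1.13. In vivo 13 of the 18 fell, and in culture 2 did. Sohlh1, a transcription factor of spermatogonial differentiation, was at 97.4 to 107 CPM at 10.5 dpp and 12.9 to 23.0 CPM at 22.5 dpp, and at 39.3 to 61.02 CPM at D4 and 27.8 and 33.7 CPM at D16. Lhx1 and Nanos3 had step differences of 2.06 and 2.01, and Nanos3 was not called without D16 replicate 1 (1.21). Id4, an inhibitor of helix-loop-helix factors, was the lower member and rose in both, by 3.35 in vivo and 1.87 in culture. The higher count was 9 without both replicate 2 libraries and 5 without D16 replicate 2. With scaling by library size alone it was 12, and with the 36.5 dpp and D30 libraries in the fit 5.

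Of 12 genes of differentiating spermatogonia 3 were higher and 2 lower. Rhox13, an X-linked homeobox gene of germ cells, was at 28.2 to 35.5 CPM at 10.5 dpp and 1.14 to 1.42 CPM at 22.5 dpp, against 23.1 to 29.2 CPM at D4 and 7.39 and 14.3 CPM at D16, a step difference of 3.11 ± 0.34. Dmrt1, a transcription factor of germ and Sertoli cells, had one of 1.502, whereas Stra8, the target of retinoic acid that marks meiotic entry, fell in both steps with a step difference of 0.18 ± 0.23 (adjusted p = 0.576 by edgeR). Ccnd2, a cyclin, was also higher, at 1.32 ± 0.30. The lower members were Tex101, a germ cell surface protein, at -1.61 ± 0.37, and Prdm9, which marks recombination sites, at -1.47 ± 0.26. Prdm9 was at 18.6 to 25.6 CPM in vivo and fell in culture from 34.1 to 36.2 CPM to 10.6 and 17.8 CPM. Hence both directions occurred in this list, its median was 0.19, and its counts were again 3 and 2 without both replicate 2 libraries. Prdm9 is counted again in the list of meiotic entry, and Dmrt1 in that of Sertoli cells.

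The step difference was lower for 12 and higher for 1 of 27 tested genes of meiotic entry and the leptotene to zygotene stages, with a median of -0.95. Spo11, whose enzyme makes the DNA breaks that start recombination, was at 3.73 to 4.45 CPM at 10.5 dpp and 102 to 126 CPM at 22.5 dpp, and at 9.35 to 10.995 CPM at D4 and 85.3 and 60.3 CPM at D16. Sycp2, a protein of the axial element of the synaptonemal complex, went from 85.1 to 112 CPM to 673 to 851 CPM in vivo and from 174 to 232 CPM to 396 and 379 CPM in culture. Both rose in both steps, were higher at D4 than at 10.5 dpp and rose by less in culture, with step differences of -2.33 ± 0.28 and -2.28 ± 0.25. Meiob, a single-strand DNA binding protein of meiosis, rose by 4.09 in vivo, with a culture step of 0.70 ± 0.27 that was not called. Dmc1, the meiotic recombinase, was at 31.9 to 41.4, 45.2 to 62.3, 60.95 to 69.6 and 29.7 to 35.9 CPM at 10.5 dpp, 22.5 dpp, D4 and D16, thus highest in mean at D4. Rec114, a partner of SPO11 whose gene overlaps Nptn, was the higher member, at 1.11 ± 0.27, and lost its call without 22.5 dpp replicate 1 (0.96). Without both replicate 2 libraries 9 genes were lower, and without D16 replicate 1 there were 18. The lower count was 8 with scaling by library size alone and 8 with the 36.5 dpp and D30 libraries in the fit.

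Of 19 genes of recombination and crossover formation 11 were lower and none was higher, with a median of -1.20. One gene was higher at an unadjusted p under 0.05 by edgeR, and DESeq2 called 12 lower and 0 higher. Msh5, which with MSH4 stabilises crossover intermediates, was at 11.5, 15.6 and 11.8 CPM at 10.5 dpp, 39.0, 44.5 and 41.1 CPM at 22.5 dpp, 22.8, 23.4 and 28.6 CPM at D4 and 16.4 and 13.7 CPM at D16. It rose in vivo, the culture step was -0.68 ± 0.17, and its step difference was -2.67 ± 0.24. Its partner Msh4 rose in both, by 3.30 in vivo and 1.07 in culture, and Hfm1, a helicase needed for crossovers, rose by 3.08 in vivo against a culture step of 0.30 ± 0.20. Rad51ap2 had the lowest step difference of those named, -3.31 ± 0.42. Of the 19 genes, 6 were higher at D4 than at 10.5 dpp and 7 were lower at D16 than at 22.5 dpp. The lower count was again 11 without both replicate 2 libraries and lay between 9 and 12 with any 1 library left out. With scaling by library size alone it was 8, and with the 36.5 dpp and D30 libraries in the fit 7.

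Genes of pachytene and later spermatocytes rose strongly in both settings, 27 of 31 in vivo and 25 of 31 in culture. Their step difference was lower for 8 and higher for none, with a median of -0.94 that was -1.84 without D16 replicate 1 and -0.48 without D16 replicate 2. Adam2, a sperm surface protein, rose from at most 0.362 CPM to 794, 489 and 759 CPM in vivo and from at most 1.61 CPM to 438 and 173 CPM in culture. Ybx2, which binds stored mRNA in germ cells, and Hspa2, a heat shock protein of spermatocytes, had step differences of -2.19 ± 0.41 and -2.02 ± 0.34, and Mybl1, the transcription factor of the pachytene programme, rose by 3.06 in vivo and 1.04 in culture. D16 replicate 2 was the lower of the D16 libraries for each of these 4 genes. One gene of the list was higher at an unadjusted p under 0.05, and DESeq2 called 10 lower and 0 higher. Without both replicate 2 libraries 11 genes were lower, and without D16 replicate 1 there were 17.

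Spermatid genes rose in both settings. Of 34 genes of round spermatids and the acrosome, 32 rose in vivo, 30 rose in culture and 4 had a lower step difference. Of 28 genes of elongating spermatids 27 and 25 rose and 5 were lower. The lower shares were 11.8% and 17.9%, against 8.63% of all genes, so that of the first list was near the share of any gene. None was higher in either list, by edgeR at an unadjusted p under 0.05 or by DESeq2, which called 6 lower in each. In the first list 11 genes and in the second 4 had a group at the floor of detection, where all libraries have at most 3 counts, and the medians were -0.83 and -1.15 as fitted and -1.51 and -1.28 with these genes at their bound. As fitted they were -3.25 and -2.85 without D16 replicate 1 and -0.14 and -0.51 without D16 replicate 2, so their size hung on which D16 library was used. Catsperg1, a subunit of the sperm calcium channel, was at 137 to 180.2 CPM at 22.5 dpp and 57.0 and 52.9 CPM at D16, a step difference of -2.15 ± 0.26. Rsph1, a radial spoke protein whose gene overlaps Ubash3a, was at 1529 to 2687 CPM at 22.5 dpp and 847 and 632 CPM at D16. Catsperd and Catsper2, of the same channel, had step differences of -1.87 ± 0.44 and -1.85 ± 0.52, and Catsper2, which overlaps Pdia3, was not called without any 10.5 dpp or D4 library or without replicate 1 or 3 of 22.5 dpp. Tekt1 and Spag16, of the tail axoneme, and Odf2, of the outer dense fibres, had step differences of -2.24 ± 0.61, -1.84 ± 0.55 and -1.68 ± 0.44. Tekt1 was not called without replicate 2 or 3 of 10.5 dpp, 22.5 dpp replicate 1 or D4 replicate 2, Odf2 without D16 replicate 2, and Spag16 without any library but 22.5 dpp replicate 2 or D16 replicate 1. The protamine genes Prm1 and Prm2 and the transition protein gene Tnp1 were at most at 12.2 CPM in any library, and their step differences had standard errors of 1.33 to 1.61 and did not pass the test. The lower counts moved with single libraries. Without D16 replicate 1 they were 19 and 15, and without both replicate 2 libraries 8 and 10, whereas the count for elongating spermatids was 3 when replicate 2 or 3 of 10.5 dpp, replicate 1 or 3 of 22.5 dpp, D4 replicate 2 or D16 replicate 2 was left out.

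The axoneme is the microtubule core of cilia and of the sperm tail. Of its 36 tested genes 22 were lower and none was higher (none also at an unadjusted p under 0.05 by edgeR, and 26 lower and 0 higher by DESeq2), with a median of -1.61. In vivo 35 of them rose and in culture 33 did. Dnah8, the heavy chain of an outer arm dynein of sperm (chr17:30626935-30875762), was at 38.1, 32.9 and 44.8 CPM at 10.5 dpp and 3856, 3165 and 2793 CPM at 22.5 dpp, and at 36.8, 44.0 and 28.1 CPM at D4 and 681 and 445 CPM at D16. It was not called between D4 and 10.5 dpp, rose in both and ended lower in culture, with a step difference of -2.72 ± 0.36. Dnah12 and Dnah7a, of inner arm dyneins, had step differences of -3.88 ± 0.46 and -3.01 ± 0.46, and Cfap69, of the tail, -2.55 ± 0.44. Without both replicate 2 libraries 24 genes were lower, and the count was 16 to 32 with any 1 library left out. With scaling by library size alone it was 17, and with the 36.5 dpp and D30 libraries in the fit 13.

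Because axoneme genes are known targets of RFX factors, which bind the X-box, the promoters of this list were searched for GTTGCCNNG, one arm of that site, on both strands. A promoter here is the stretch from 250 bases before to 50 bases after the first start listed for the gene by RefSeq in GRCm38.p6. Of the 36 genes 31 had one, and 7 of these (22.6%) held the letters, as did 6% of the 14440 promoters of tested genes. Only 78.6% of the tested genes had a promoter listed, so the check against all genes is void. Among the genes called lower 4 of 21 promoters held the letters, and among those not called 3 of 10, with 4 more not listed. The promoters of 3 called members are printed 5′ to 3′ with the letters in capitals, to show where they lie relative to the start, and these genes were chosen after their values were seen. That of Dnah10 is chr5:124724835-124725134, plus strand, that of Ttc21a chr9:119937356-119937655, plus strand, and that of Spef2 chr15:9748819-9749118, minus strand.
Dnah10: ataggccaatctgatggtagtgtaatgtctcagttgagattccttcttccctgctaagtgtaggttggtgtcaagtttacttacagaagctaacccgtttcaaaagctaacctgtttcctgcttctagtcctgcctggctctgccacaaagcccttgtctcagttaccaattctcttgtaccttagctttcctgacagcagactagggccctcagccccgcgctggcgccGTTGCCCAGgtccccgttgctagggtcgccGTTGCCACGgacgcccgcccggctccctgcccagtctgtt
Ttc21a: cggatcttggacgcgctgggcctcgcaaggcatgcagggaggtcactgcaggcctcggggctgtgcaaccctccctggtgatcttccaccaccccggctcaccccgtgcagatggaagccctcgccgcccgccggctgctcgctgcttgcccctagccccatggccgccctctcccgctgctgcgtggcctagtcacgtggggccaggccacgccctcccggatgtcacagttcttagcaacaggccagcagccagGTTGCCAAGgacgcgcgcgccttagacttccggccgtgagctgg
Spef2: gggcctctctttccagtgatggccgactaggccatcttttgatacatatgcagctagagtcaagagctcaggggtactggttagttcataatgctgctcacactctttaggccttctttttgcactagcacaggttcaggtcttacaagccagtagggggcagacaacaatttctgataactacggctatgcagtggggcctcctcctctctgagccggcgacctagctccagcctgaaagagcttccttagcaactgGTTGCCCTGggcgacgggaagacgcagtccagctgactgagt
The Dnah10 window holds the letters at 2 places, the first beginning 20 bases before the start, and in Ttc21a and Spef2 they begin at bases 7 and 9, counted from 1 at the start. Dnah10, an inner arm dynein, was at 132, 81.6 and 119 CPM at 22.5 dpp and 36.3 and 24.5 CPM at D16, a step difference of -2.50 ± 0.38. Ttc21a, of intraflagellar transport, had one of -2.13 ± 0.47, and Spef2, a tail protein, one of -1.61 ± 0.43, which was not called without 10.5 dpp replicate 3, D4 replicate 2 or D16 replicate 2 (highest adjusted p = 0.0582 by edgeR). Rfx2, an RFX factor of spermatids, had a step difference of -1.68 ± 0.39, with 238 to 370 CPM at 22.5 dpp and 149 and 82.9 CPM at D16. It was not called with the 36.5 dpp and D30 libraries in the fit. Whether RFX factors had a part in the axoneme result was not tested.

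**Figure D3:**
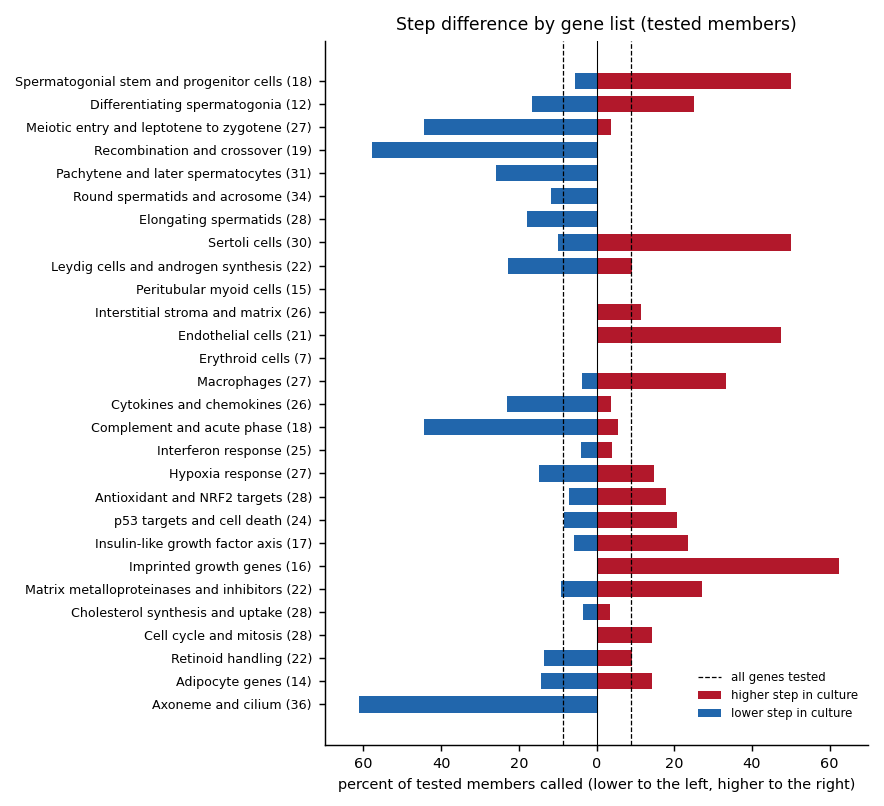
Bars give the percent of tested members (their number in parentheses) with a step difference lower in culture, to the left, or higher, to the right, and dashed lines mark the 8.63% and 8.86% of all genes tested. With all 11 libraries, axoneme (22 of 36) and recombination genes (11 of 19) extend far to the left, and imprinted growth (10 of 16), Sertoli (15 of 30) and spermatogonial stem and progenitor genes (9 of 18) to the right.

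Of 30 genes of Sertoli cells 18 fell in vivo and 1, Amh, in culture, and the step difference was higher for 15 and lower for 3, with a median of 1.02. Gdnf, the growth factor that maintains spermatogonial stem cells, was at 26.4, 21.8 and 26.5 CPM at 10.5 dpp, 1.85, 4.15 and 2.05 CPM at 22.5 dpp, 14.5, 12.6 and 11.7 CPM at D4 and 11.1 and 19.3 CPM at D16, a step difference of 3.18 ± 0.39. Fshr, the receptor of follicle-stimulating hormone, stayed between 45.2 and 58.6 CPM in the 5 culture libraries and went from 42.0 to 49.1 CPM to 11.3 to 17.0 CPM in vivo. Amh, the anti-Müllerian hormone of immature Sertoli cells, fell in both, by 3.21 in vivo and 2.00 in culture on the log2 scale, and its level at D16, 53.1 and 57.6 CPM, was not called against 25.8 to 41.2 CPM at 22.5 dpp. Aard was at 1082 to 1419 CPM at 10.5 dpp, 195 to 400.4 CPM at 22.5 dpp and 858 to 1201 CPM in the culture libraries, a step difference of 1.67 ± 0.31. Sox9 and Gata4, transcription factors of these cells, had step differences of 1.55 ± 0.37 and 1.58 ± 0.29, and Vim, of intermediate filaments, one of 1.07 ± 0.18 that fell below a difference of 1 without 22.5 dpp replicate 1 or D16 replicate 1 (0.93 at the lowest). The lower members were Rhox5, Trf and Tsx. Tsx, an X-linked gene next to Chic1, rose from 3.24 to 4.23 CPM to 51.5 to 76.1 CPM in vivo and from 15.5 to 22.3 CPM to 51.4 and 43.4 CPM in culture. Trf, the transferrin gene, rose in vivo to 50.9 to 66.5 CPM and was at 59.6 to 77.4 CPM in every culture library. The counts were again 15 and 3 without both replicate 2 libraries. The germ cell markers moved against this list, with pachytene sums of 3681 to 6197 CPM at 22.5 dpp against 1447 and 4081 CPM at D16, and their part in the result was not tested.

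In Leydig cells and androgen synthesis both directions were called, 2 higher and 5 lower of 22. The higher share, 9.09%, was near the 8.86% of all genes, and the lower share was 22.7% against 8.63%. Hsd3b6, the 3β-hydroxysteroid dehydrogenase of adult Leydig cells, was at 0.606, 1.47 and 0.673 CPM at 10.5 dpp, 112, 153 and 124 CPM at 22.5 dpp, 3.41, 5.87 and 5.36 CPM at D4 and 10.2 and 27.9 CPM at D16. It rose in both, and its step difference was -5.49 ± 0.61. Hsd3b6 and Hsd3b1 are close copies, so that reads could have been split between them and both values are uncertain. Hsd3b1 had a step difference of -0.51 ± 0.30 that did not pass. Ces1d, a carboxylesterase, also rose in both, by 6.63 and 3.42, and Cyp11a1, which makes pregnenolone from cholesterol, fell in culture from 67.7 to 139 CPM to 47.1 and 61.1 CPM while its in vivo levels were 175 to 245 and 255 to 304 CPM. Cyp17a1, of the next steps to androgens, was at 262 to 376 CPM in the in vivo libraries and 10.8 to 17.98 CPM in the culture libraries, and was called lower in culture at both ages. Its step difference was -0.15 ± 0.30. Thbs2, a matrix glycoprotein, was higher, at 2.42 ± 0.31, and Hsd11b1 was higher as well. The number of higher genes was 1 when replicate 3 of 10.5 dpp or replicate 1 of D4 was left out, and 3 without both replicate 2 libraries, with 6 lower.

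Endothelial genes were higher for 10 and lower for none of 21, with a median of 1.10. One was lower at an unadjusted p under 0.05 by edgeR, and DESeq2 called 10 higher and 0 lower. Cdh5, the cadherin of endothelial junctions, was at 109 to 113 CPM at 10.5 dpp, 14.7 to 25.3 CPM at 22.5 dpp, 81.7 to 105 CPM at D4 and 134 and 96.9 CPM at D16, a step difference of 2.61 ± 0.27. Pecam1, an adhesion molecule, was highest in mean at D16, at 83.6 and 58.2 CPM, against 6.68 to 11.3 CPM at 22.5 dpp, and Sox18 and Erg, transcription factors of these cells, had step differences of 2.30 ± 0.24 and 1.65 ± 0.29. Between 22.5 dpp and D16 the pachytene sums given for the Sertoli list moved against these genes too. Within 22.5 dpp, replicate 2, with the lowest pachytene sum, had the highest list median (3.19 log2 CPM against 2.75 and 2.87). Within D16 the order was the other way. Replicate 1, with the higher pachytene sum, had the higher list median, 4.41 against 4.22 log2 CPM. The part of the germ cells in this result was not tested. The higher count was 12 without both replicate 2 libraries, and 1 gene was lower without D16 replicate 1. Of 26 genes of interstitial stroma and matrix, 21 fell in vivo and 13 in culture. Higher were 3, Spp1 at 1.93, Loxl1 at 1.18 and Pdgfrb at 1.13, a share of 11.5%, near the 8.86% of all genes. None was lower by edgeR, against 3 at an unadjusted p under 0.05 and 0 by DESeq2. Loxl1 and Pdgfrb dropped below a difference of 1 without D16 replicate 1, where 2 genes were lower, without 22.5 dpp replicate 2 there were 5 higher and 1 lower, and without both replicate 2 libraries 5 higher. Of 15 genes of peritubular myoid cells, none was called by edgeR, 2 were higher and 1 lower at an unadjusted p under 0.05, DESeq2 called 1 higher, 1 was higher without replicate 2 or 3 of 22.5 dpp or D16 replicate 1 and 2 without both replicate 2 libraries, and the smooth muscle actin gene Acta2 had a step difference of 0.37 ± 0.26.

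Of 27 macrophage genes 10 were lower and 5 higher at D4 than at 10.5 dpp, and the step difference was higher for 9 and lower for 1. Cx3cr1, the fractalkine receptor, was at 11.7, 12.5 and 13.1 CPM at 10.5 dpp and 13.4, 22.7 and 13.6 CPM at 22.5 dpp, but at 0.882, 0.671 and 0.840 CPM at D4 and 12.2 and 13.9 CPM at D16. It was not called between D16 and 22.5 dpp, and its step difference was 3.36 ± 0.28. Adgre1, which encodes F4/80, had the same course, from 1.63 to 2.21 CPM at D4 to 15.3 and 15.1 CPM at D16, and C1qb, of complement C1q, rose to 28.2 and 16.2 CPM. F13a1, of coagulation factor XIII, rose in both but was lower in culture at both ages, at 1.81 and 3.91 CPM at D16 against 61.2 to 75.9 CPM at 22.5 dpp. H2-Ab1, of MHC class II, was the lower member, at -3.14 ± 0.82. The 4 defining macrophage markers summed to 57.5 to 79.3 CPM at 10.5 dpp, 85.0 to 124 CPM at 22.5 dpp, 12.1 to 17.0 CPM at D4 and 87.3 and 91.4 CPM at D16. The lower count was 3 without D16 replicate 1 and 2 without D16 or 22.5 dpp replicate 2, and without both replicate 2 libraries 10 were higher and 3 lower.

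Complement and acute phase genes were high in culture from the start. At D4 11 of 18 were higher than at 10.5 dpp, and at D16 9 were higher than at 22.5 dpp. In vivo 9 rose, in culture 4 fell, and the step difference was lower for 8 and higher for 1, with a median of -0.91. C4b was at 0.831, 0.779 and 0.837 CPM at 10.5 dpp, 22.9, 15.4 and 25.0 CPM at 22.5 dpp, 16.8, 18.8 and 22.0 CPM at D4 and 17.2 and 19.4 CPM at D16, a step difference of -5.05 ± 0.35, though its near copy C4a makes the value uncertain. C7, of the membrane attack complex, followed C3, with 3.46 to 4.28 CPM at 10.5 dpp, 36.1 to 51.8 CPM at 22.5 dpp, 76.1 to 97.5 CPM at D4 and 72.9 and 87.1 CPM at D16. Serpina3n, an acute phase protease inhibitor, was at 0.651 to 1.11 and 6.15 to 15.2 CPM in vivo and at 127 to 177 CPM at D4 and 75.1 and 123 CPM at D16. In vivo C3, C7 and Serpina3n thus rose to levels below every culture library, and C4b reached the culture range. Lcn2, an iron-binding protein of acute inflammation, rose in vivo by 4.07, and its step difference was -3.17 ± 0.42. Cfi, the factor that degrades active C3, was the higher member, and fell from 23.6 to 26.5 CPM to 1.23 to 2.72 CPM in vivo and from 47.3 to 52.4 CPM to 23.5 and 24.2 CPM in culture. The lower count was 9 without both replicate 2 libraries and 7 to 9 with any 1 library left out.

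Of 26 tested cytokine and chemokine genes (of 29 listed), 15 were higher at D4 than at 10.5 dpp and 15 at D16 than at 22.5 dpp. The step difference was lower for 6 (23.1%, against 8.63% of all genes) and higher for 1 (3.85%, against 8.86%). Il33, an alarmin of stressed cells, was at 0.0674 to 0.167 CPM at 10.5 dpp, 4.21 to 5.41 CPM at 22.5 dpp, 5.71 to 7.91 CPM at D4 and 9.15 and 7.08 CPM at D16, a step difference of -5.20 ± 0.46. Its 10.5 dpp levels lay near the floor, which is 0.0674 CPM in replicate 1 of that age. The size of its step difference thus rests on few reads and is uncertain. Cxcl14 fell in culture from 18.2 to 25.3 CPM to 7.67 and 6.91 CPM. Csf1 was lower by 1.03, and left the call without any of 9 libraries (all 10.5 dpp and D4 libraries, 22.5 dpp replicates 2 and 3, and D16 replicate 1). The lower count was 3 without 10.5 dpp replicate 1, D4 replicate 1 or D4 replicate 2. The single higher gene, Tnf, was at most at 0.603 CPM in any library, and DESeq2 called 0 higher. The higher count was 3 without 22.5 dpp replicate 2, 1 without D16 replicate 1 and 0 without any other library, and without both replicate 2 libraries 2 were higher and 7 lower. With 6 genes that have a group at the floor, the median was -0.39 as fitted and -0.51 at their bound. In 25 interferon response genes, 1 gene was called in each direction, Irf1 at 1.38 ± 0.28 and Mx1 at -1.99 ± 0.56. These shares of 4% were below those of all genes. The median was -0.93 with all libraries but 0.235 without 22.5 dpp replicate 2 alone. It was 0.20 without both replicate 2 libraries, where 2 were higher and 1 lower. The median level of the list was 3.70 log2 CPM in 22.5 dpp replicate 2 against 1.42 and 1.63 in replicates 1 and 3, so the negative median hung on that library. Mx1 lost its call without replicate 1 or 2 of 10.5 dpp, 22.5 dpp replicate 3, replicate 1 or 2 of D4, or D16 replicate 1 (highest adjusted p = 0.061 by edgeR).

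**Figure D4:**
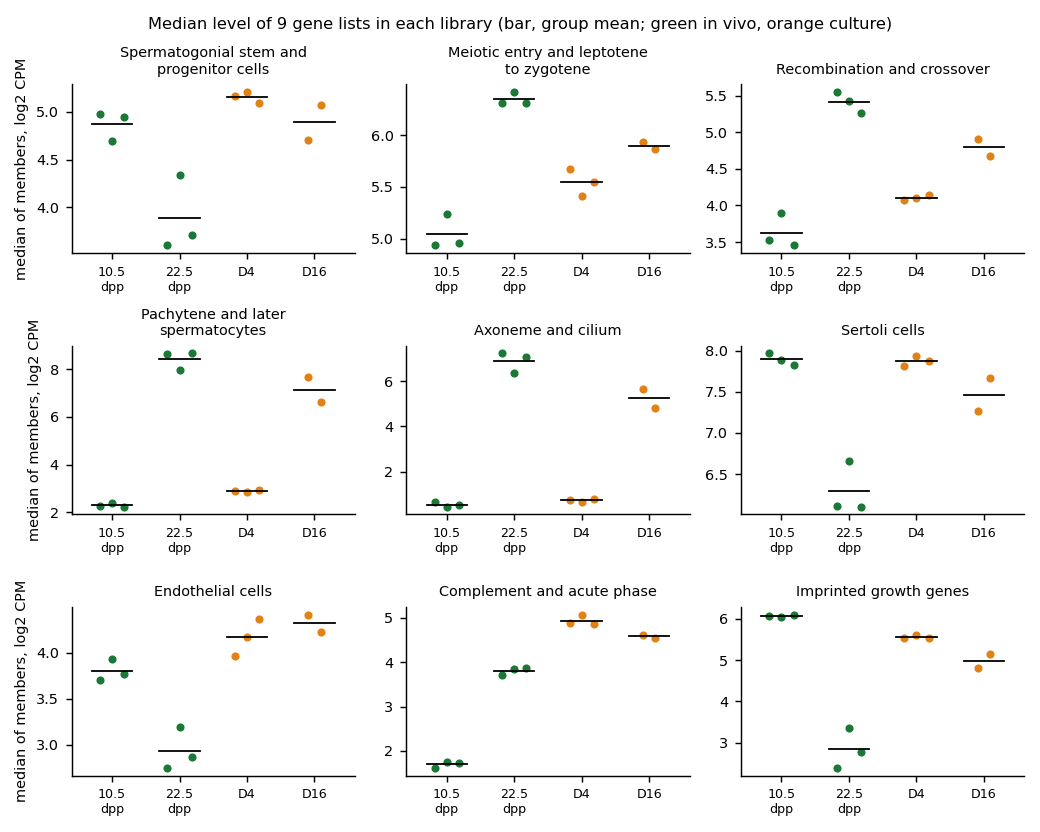
Each panel gives the median log2 CPM of 1 list in the 11 libraries, in vivo in green and culture in orange, with a bar at the group mean. Sertoli, endothelial and imprinted genes drop in vivo far more than in culture, complement genes start high at D4, and pachytene and axoneme genes rise in both with 22.5 dpp replicate 2 and D16 replicate 2 below the other libraries of their groups.

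Imprinted growth genes were higher for 10 of 16 and lower for none (none at an unadjusted p under 0.05 by edgeR, and 11 and 0 by DESeq2), and a median of 1.24. In vivo 13 of them fell and in culture 6 did. H19, a maternally expressed noncoding RNA, was at 477, 551 and 443 CPM at 10.5 dpp, 4.70, 15.4 and 6.45 CPM at 22.5 dpp, 635, 719 and 837 CPM at D4 and 68.6 and 101 CPM at D16. It fell in both steps and fell less in culture, with a step difference of 2.45 ± 0.46. Its neighbour Igf2, the paternally expressed growth factor, had one of 2.52 ± 0.46, with 1.26 and 1.99 CPM at D16 against 0.211 to 0.702 CPM at 22.5 dpp. Zim1, a zinc finger gene, went from 98.2 to 113 CPM to 0.885 to 2.52 CPM in vivo and from 26.6 to 37.2 CPM to 3.32 and 6.08 CPM in culture. The pachytene sums moved against this list as well, and their part was not tested. The count was 11 without both replicate 2 libraries and 9 to 11 with any 1 library left out. Of 17 tested genes of the insulin-like growth factor axis, 4 were higher and 1 lower (23.5% and 5.88%). Besides H19 and Igf2 these were the binding proteins Igfbp3 and Igfbp5. Igfbp3 was at 44.7 to 49.5 CPM at 10.5 dpp and 3.54 to 6.65 CPM at 22.5 dpp, but at 411 to 483 CPM at D4 and 691 and 383 CPM at D16, a step difference of 3.33 ± 0.34 and a difference at the end of 6.68 ± 0.30. The protease gene Htra1 was the lower one, 2 genes were lower without D4 replicate 1 or D16 replicate 1, and 5 were higher without both replicate 2 libraries.

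Of 22 tested matrix metalloproteinases and inhibitors 6 were higher and 2 lower (27.3% and 9.09%, the latter near the share of all genes). Mmp11 was at 143 to 157 CPM at 10.5 dpp, 14.7 to 22.8 CPM at 22.5 dpp, 117 to 138 CPM at D4 and 60.5 and 92.8 CPM at D16, a step difference of 2.05 ± 0.23, and Mmp23 had one of 1.54 ± 0.34 (1.02 without D16 replicate 1). Mmp19 was lower, at -1.82 ± 0.25, and 1 gene was lower without replicate 2 or 3 of 22.5 dpp or without D4 replicate 2. In the family 7 were higher and 2 lower without both replicate 2 libraries. Mmp12, the macrophage elastase, was at the floor at 10.5 dpp and at 10.3 and 18.02 CPM at D16, and its fitted step difference depends on the prior count and is not read. At 9 higher of 22 at D4 and 14 at D16, the difference between culture and in vivo in this family was present at both ages.

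Hypoxia response genes were split, with 4 higher and 4 lower of 27 (14.8% in each direction). The lower ones included Slc2a3, a glucose transporter of germ cells, and Ldha, a lactate dehydrogenase, which both rose in both settings. Slc2a3 was at 23.3 to 26.0 CPM at 10.5 dpp, 2083 to 3198 CPM at 22.5 dpp, 39.9 to 42.5 CPM at D4 and 1407 and 1019 CPM at D16. Pfkfb4, a regulator of glycolysis, rose in both as well, with a step difference of -1.48 ± 0.25. Vldlr, the lipoprotein receptor, was the highest of the named, at 1.68 ± 0.18, with 93.3 to 113 CPM at D4 and 40.9 and 48.8 CPM at D16 against 11.5 to 13.4 and 1.30 to 1.54 CPM in vivo. Vegfa, the angiogenic factor, was at 256 to 333 CPM at D4 and 135 and 191 CPM at D16 against 34.4 to 50.0 and 8.47 to 16.4 CPM in vivo, and its step difference, 0.62 ± 0.34, did not pass. In all, 13 of the 27 were higher at D4 and 15 at D16, and without both replicate 2 libraries 6 had a higher and 4 a lower step difference. Of 24 p53 target and cell death genes, 5 were higher and 2 lower (20.8% and 8.33%, the latter near the share of all genes). Bax, which permeabilises mitochondria, was at 1.36 ± 0.22, Btg2 at 1.58 ± 0.21, Eda2r at 1.76 ± 0.41 and Perp at -1.83 ± 0.45. The p53 counts were 7 and 2 without both replicate 2 libraries. Of 28 tested antioxidant genes, 5 were higher and 2 lower (17.9% and 7.14%, the latter near the share of all genes). Slc7a11, the cystine transporter, was lower at -3.21 ± 0.33, and the extracellular peroxidase Gpx3 was higher at 1.45 ± 0.29, with 92.5 to 163 CPM in the culture libraries. Gpx3 and Prdx1 dropped below a difference of 1 without D16 replicate 1 (0.94 and 0.67), and the metallothionein gene Mt2 kept its call only without 22.5 dpp replicate 2 or D16 replicate 1 (adjusted p up to 0.126 by edgeR). The higher count for antioxidant genes was 2 without D16 replicate 1, 3 without 22.5 dpp replicate 1 or D4 replicate 1, and 8 without 22.5 dpp replicate 3 or without both replicate 2 libraries. It also hung on the scaling, with 2 higher by RLE factors or DESeq2 and 9 by library size alone. Those lower were 4 without D16 replicate 1, 3 without 22.5 dpp replicate 2 and 1 without any other library.

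Few genes were called in the other lists, whose shares are set against 8.86% higher and 8.63% lower of all genes. The higher and lower shares were 3.57% and 3.57% for cholesterol and 14.3% and 0% for the cell cycle. For retinoids they were 9.09% and 13.6%, and for adipocyte genes 14.3% and 14.3%. Of 28 genes of cholesterol synthesis and uptake 1 was higher (Abcg1, a sterol exporter, at 1.36) and 1 lower (Scd1, a fatty acid desaturase, at -1.70). At an unadjusted p under 0.05 by edgeR 3 of them were higher and 10 lower. Of 28 cell cycle genes 4 were higher, namely Tyms, Cenpa, Ccnd1 and Ccna2 at 1.71, 1.61, 1.29 and 1.18, and none was lower. At an unadjusted p under 0.05 by edgeR 10 were higher and 2 lower, and DESeq2 called 0 lower. Of 22 tested genes of retinoid handling 2 were higher and 3 lower. Rdh11, which reduces retinal, was at 274 to 411 CPM at 22.5 dpp and 208 and 100.5 CPM at D16, and Lrat, which stores retinol as esters, was also lower, at -2.04 ± 0.46, whereas Crabp1, a carrier of retinoic acid, and the receptor gene Rarg were higher at 1.33 and 1.04. Of 14 tested adipocyte genes 2 were higher, Fabp4 at 1.44 ± 0.43 and Lpl at 1.35 ± 0.40, and 2 lower, Plin4 at -1.57 ± 0.40 and Pparg at -1.18 ± 0.24, all at most at 39.5 CPM, and of 7 tested erythroid genes none was called by edgeR, at an unadjusted p under 0.05 or by DESeq2. Single libraries moved these counts. Without D16 replicate 1, 3 cell cycle genes were lower, 6 retinoid genes higher and 5 lower, 4 adipocyte genes lower and 1 erythroid gene called in each direction. Without 22.5 dpp replicate 2, 4 retinoid genes were higher and 5 lower, and 3 cholesterol genes were lower, a count that was 2 without replicate 1 or 2 of 10.5 dpp, 22.5 dpp replicate 1, any D4 library or D16 replicate 1. Without D4 replicate 1, Rarg dropped out and 1 retinoid gene was higher. No adipocyte gene was higher without replicate 1 or 3 of 10.5 dpp, 22.5 dpp replicate 3, replicate 1 or 3 of D4, or D16 replicate 2, 1 was higher without 10.5 dpp replicate 2, 22.5 dpp replicate 1 or D4 replicate 2, and 1 was lower without 22.5 dpp replicate 3, where Plin4 dropped out. The higher and lower counts without both replicate 2 libraries were 1 and 3 for cholesterol, 4 and 0 for the cell cycle, 3 and 6 for retinoids, 2 and 3 for adipocytes, and 0 and 0 for erythroid genes.

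Some genes were called in opposite directions in the 2 steps, and those named here were chosen after their values were seen. A set of 26 genes fell in vivo and rose in culture. Besides Rgs17 and Hoxb9, Rgs5, a pericyte gene, was at 50.8 to 75.7 CPM at 10.5 dpp, 16.7 to 25.3 CPM at 22.5 dpp, 12.3 to 15.7 CPM at D4 and 64.6 and 34.2 CPM at D16, and Olfml2a, Ociad2 and Fibin had step differences of 2.60, 2.52 and 2.10. A further 28 rose in vivo and fell in culture. Sdk1, a cell adhesion protein, was at 20.1, 27.1 and 18.8 CPM at 10.5 dpp, 35.0, 43.2 and 33.7 CPM at 22.5 dpp, 38.8, 39.1 and 40.1 CPM at D4 and 9.78 and 13.6 CPM at D16. Fam107a and the ribosomal protein gene Rpl35a, which overlaps Iqcg, had step differences of -3.50 ± 0.32 and -3.67 ± 0.52. Without both replicate 2 libraries the counts were 63 and 61.

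X-linked genes are silenced in pachytene spermatocytes, and their share of the counts differed between the ages. It was 3.72% to 3.81% at 10.5 dpp and 1.30% to 2.04% at 22.5 dpp, and 3.66% to 3.99% at D4 and 2.56% and 3.29% at D16. The share at D16 lay between those of 10.5 and 22.5 dpp, and in each later group the library with the lower pachytene markers, replicate 2, had the higher X-linked share. Of 762 X-linked genes tested, 18.1% were higher and 4.46% lower, against 8.47% and 8.81% of autosomal genes. Among genes that fell in vivo, however, 115 of 325 X-linked genes (35.4%) and 1256 of 3197 autosomal genes (39.3%) were higher. The part of silencing in these shares was not tested. The median step difference of X-linked genes was 0.49, with a median change of -0.89 in vivo and -0.31 in culture.

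**Figure D5:**
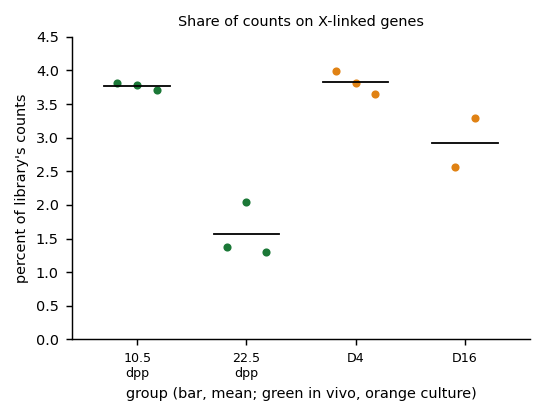
The percent of each library's counts that lies on X-linked genes is shown on a linear axis from 0 for the 4 groups, in vivo in green and culture in orange, with a bar at the group mean. At 22.5 dpp the 3 libraries lie between 1.30% and 2.04%, below both D16 libraries at 2.56% and 3.29%.

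Of the 29 genes named by the study that could be tested, 8 were higher, 6 lower and 15 were not called. They were chosen by the study on these samples, so the counts are no independent evidence of a direction (9 and 6 without both replicate 2 libraries). The higher ones were Amh, Cfi, Gata4, Gpx3, Igfbp3, Sox9, Vim and Vldlr, and the lower ones C3, C7, Ccn5, Cyp11a1, Il33 and Serpina3n. Ccn5, a matricellular protein, was at 0.0834 to 0.236 CPM at 10.5 dpp, 3.26 to 4.26 CPM at 22.5 dpp, 8.94 to 15.1 CPM at D4 and 5.51 and 12.2 CPM at D16, a step difference of -5.32 ± 0.57. Its 10.5 dpp levels lay near the floor, which is 0.0834 CPM in replicate 2 of that age, so the size of this value is uncertain. Among those not called, Ddx4, the germ cell RNA helicase, rose in both, by 1.99 and 1.57, and Dcn, a matrix proteoglycan, had a step difference of 0.92 ± 0.25 that passed the adjusted p but not the size and was called without replicate 2 of 22.5 dpp, D4 or D16. Wnt4, a signalling ligand, was higher in culture at both ages, and its step difference, 0.94 ± 0.40, passed only without D16 replicate 1. Bgn, the matrix proteoglycan biglycan, was higher in culture at D16 and had a step difference of 0.52 ± 0.23 that did not pass. A step difference that did not pass does not show equal steps.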

How the data were processed

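RNA-seq of 11 libraries was used: fresh 10.5 dpp (3), 22.5 dpp (3), D4 (3) and D16 (2). The authors deposited raw counts of reads per gene. They aligned single-end reads to GRCm38 (mm10) with STAR 2.7.3a and counted with HTSeq 0.12.4, intersection-nonempty, without normalization. The strand setting is not given in the sources used here, so genes that overlap others cannot be told apart from them. Names and positions came from RefSeq GRCm38.p6, which holds 27373 of the 27466 identifiers; the other 93 carried 0.0216% of counts.

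Totals ran from 31634658 to 69029328. The study calls the replicates biological and pooled explants within each culture replicate; whether replicates share animals is not given in the sources used here. The p-values measure the spread between these samples. A group with at most 3 counts in every library was taken as at the floor, which covers counting error only. Levels are CPM on the library total. The 4 groups were fitted with edgeR 4.0.16 (R 4.3.3; TMM, filterByExpr, quasi-likelihood F test, Benjamini-Hochberg over 18372 genes). A gene was called at an adjusted p under 0.05 and a log2 difference of at least 1. Errors are SE, the fitted log2 value divided by the square root of F. For plotted list medians, 2 counts were added as a prior before log2 CPM was taken. The fitting code was checked on simulated counts. Alternatives changed the scaling, filter, test (DESeq2 1.42.0), thresholds, replicate block and libraries; leaving out replicate 2 of both 22.5 dpp and D16 was added after the data were seen. Plots used matplotlib 3.10.9.

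The comparison and the 29 lists were chosen with earlier results of these data known. Lists can share members, such as Prdm9, Dmrt1 and Spp1, so their counts are not separate. Named genes are the 10 with the smallest p in each direction at 10 CPM or more, the called list members (at most 4 a list, by size, at 5 CPM or more) and genes the study names. The genes that moved in opposite directions, and Fshr, Rec114, Dnah10, Ttc21a, Spef2, Rhox5, Htra1, Hsd11b1 and Tnf were added after their values were seen. One gene is not reported here.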

Additional observations from a re-analysis of the deposited data

Results flagged for a closer look

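The steps differed between culture and in vivo, by edgeR's test of the interaction, in 1627 genes with a higher and 1585 with a lower culture step. Opposite directions were called in 26 genes that fell in vivo and rose in culture and in 28 that rose in vivo and fell in culture. Among the first, the step differences were 8.11 for Rgs17, 3.89 for Hoxb9, 3.17 for Rgs5, 2.60 for Olfml2a, 2.52 for Ociad2 and 2.10 for Fibin. Among the second they were -3.67 for Rpl35a, -3.50 for Fam107a and -2.78 for Sdk1. No cause was tested.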

How the results depend on the processing

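Counts below are for the step difference as higher and lower, and for the other comparisons as all calls. Scaling by library size alone gave 2605 and 1053, and a fit that also held the 36.5 dpp and D30 fresh libraries gave 1009 lower. A log2 difference of 2 with an adjusted p of 0.001 left 54 and 68, glmTreat 202 and 255, and no fold threshold gave 2602 higher. With the strict threshold, no fold threshold and glmTreat, the step in culture had 1283, 6772 and 2329 calls, the start 233, 2809 and 406, and the end 314, 7929 and 699, and the step in vivo had 3202 and 13464 with the strict and no fold threshold. With any 1 library left out, the step difference ranged from 1172 to 2297 higher and from 982 (without 22.5 dpp replicate 3) to 2920 lower (without D16 replicate 1), the culture step from 2555 to 5718 (without D16 replicate 1 and 2), and the end from 2759 to 6204 (without D16 replicate 2 and 1). A lone D16 library was assumed to vary like the other groups. The other counts of calls over all genes stayed within 1.5 times.

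With a replicate block the step difference had 1610 higher and 1717 lower calls. Same-numbered libraries did not deviate together in all 15 pairs (correlations of -0.098 to 0.682, 5 over 0.1). The highest values were between the later in vivo and culture groups, at 0.558 for replicate 1 and 0.682 for replicate 2. D16 has 2 libraries, whose deviations mirror each other, so these correlations cannot decide whether same-numbered samples share more than a number.

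Of 126 called named genes 103 kept their call in all 20 alternatives. No reversed gene was called. Cyp17a1 was 0.13 with library size only and -0.32 to 0.030 with 1 library left out, Stra8 -0.017 without both replicate 2 libraries of the later ages and -0.041 to 0.38, and Tnp1 -1.40 to 1.54. Mmp12, with a group at the floor, had fitted values of -1.30 to 1.27, which depend on the prior count and are no fold. The cause was not tested. With 2 D16 libraries, small differences were not detectable where those 2 differ.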
